A study of Homo sapiens with 12 samples.

Results

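The anti-apoptotic genes of the BCL2 family were described together with ABALON, the long non-coding RNA gene that lies opposite BCL2L1. The 7 genes BCL2, BCL2L1, ABALON, MCL1, BCL2A1, BCL2L2 and BCL2L10 were chosen by name, and all 7 were found among the 59490 gene names listed once in the deposited tables. Polyadenylated RNA had been sequenced in 12 libraries of the OCI-LY1 cell line, established from a human diffuse large B-cell lymphoma, with 3 libraries in each of 4 groups. Parental cells received vehicle (DMSO) or 1 µM decitabine, a nucleoside analogue that blocks DNA methyltransferases, for 3 days. Venetoclax-resistant OCI-LY1R cells, a single derivative of that line selected with rising venetoclax up to 1 µM, received the same 2 treatments. The sources used here do not say whether OCI-LY1R was cloned or whether venetoclax was present during the 3 days. Nothing in the labels says that replicates were grown separately, and p-values reflect the spread of these libraries only, which may be technical. Parental libraries are numbered as in their titles. Resistant libraries could be tied to their groups but not to single samples, and have the letters a to c.

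BCL2 family proteins decide whether the outer mitochondrial membrane is opened during apoptosis. The anti-apoptotic members hold the effectors BAX and BAK1 and the BH3-only proteins in a surface groove, and cells survive while enough of the groove is free. Venetoclax occupies that groove in BCL2, and germinal-centre lymphomas often depend on BCL2, MCL1 or the long product of BCL2L1 (BCL-XL). BCL2L1 also gives a short splice form that promotes death, and ABALON has been described as an antisense RNA that favours this short form.

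ABALON and BCL2L1 are read from the same DNA in opposite directions. BCL2L1 (chromosome 20, 31664452 to 31723989, minus strand, GRCh38, GENCODE 29) has 3314 bases of annotated exon, and ABALON (chromosome 20, 31721507 to 31723409, plus strand) is 1 exon of 1903 bases. They share 1424 exon bases, which is 74.8% of ABALON and 43% of BCL2L1. Of the 699 coding bases of BCL2L1, 564 (80.7%) lie opposite ABALON. The first 60 coding bases of BCL2L1 (chr20:31722159-31722218, minus strand) and the same interval as read in ABALON (plus strand) are shown, 5′ to 3′, because assignment to strand alone decides which of the 2 genes a read from here is counted for. Capitals mark the start codon of BCL2L1 and its reverse complement.
BCL2L1: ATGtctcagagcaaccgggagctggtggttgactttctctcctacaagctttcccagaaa
ABALON: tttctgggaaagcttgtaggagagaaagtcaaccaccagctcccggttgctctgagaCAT

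**Figure D1:**
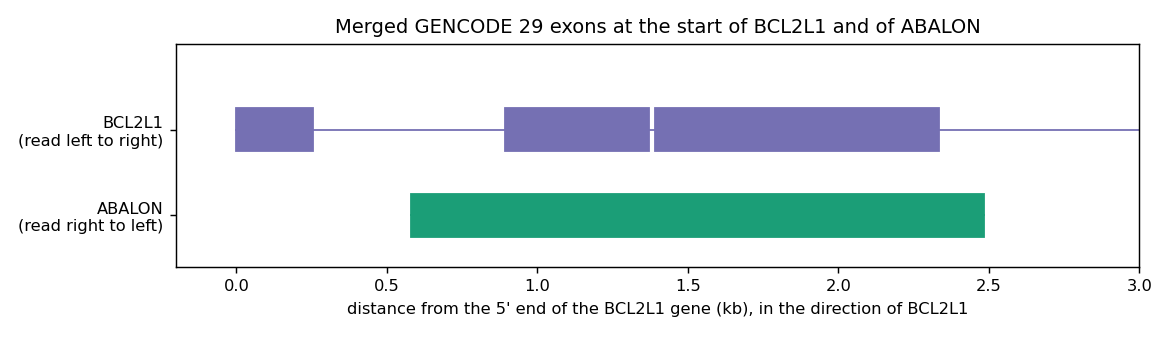
Merged GENCODE 29 exons (boxes) and introns (lines) at the start of BCL2L1 and of ABALON, against the distance in kb from the 5′ end of BCL2L1 in its own direction. The distal part of BCL2L1 is not drawn. The single exon of ABALON faces 1424 exon bases of BCL2L1.

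Values are TPM, a length-normalised abundance that sums to 1000000 in each library, so listed values share a scale. Depth is unknown, and no counting interval is given. Parental decitabine replicate 3 stood apart from the other 11 libraries and is shown apart throughout. In replicate 3 the share of TPM was 89.6% for protein-coding and 0.299% for antisense features, and in the 11 these shares were 26.6% to 32.2% and 35% to 48.8%. All 16 germinal-centre B-cell markers were at or above 1 TPM in replicate 3 (sum 4663 TPM), against 10 of 16 by their mean over the 11 libraries (sums of 46.9 to 206 TPM), where LMO2 and SERPINA9 were among those at 0 throughout. The germinal-centre sums were 67.1 to 159.8 TPM in parental vehicle and 46.9 to 63.98 TPM in parental decitabine replicates 1 and 2, and 54.5 to 145.5 TPM in resistant vehicle and 141.3 to 206 TPM in resistant decitabine libraries. By their mean over the 11 libraries, 1 of 6 plasma-cell markers (sums of 0 to 2767 TPM), 0 of 7 T-cell markers (0 to 1.09 TPM), 1 of 7 myeloid markers (0 to 4.78 TPM) and 1 of 7 epithelial or stromal markers (0 to 23.4 TPM) reached 1 TPM. Their part in the results was not tested. Whether a value listed in the 11 libraries comes from the gene's own strand was not tested. Orders of genes, shares and ratios below are therefore those of listed values.

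The order of the members differed between replicate 3 and the other libraries. In replicate 3, BCL2 was listed at 169.9 TPM, BCL2L1 at 90.3, MCL1 at 56.3, BCL2A1 at 7.50, BCL2L2 at 1.60, BCL2L10 at 0.29 and ABALON at 0.26 TPM. In the 11 libraries ABALON was the highest of the 7 in every library, at 160.3 to 255 TPM, and the ranges of BCL2L2 (62.2 to 112 TPM) and BCL2 (34.5 to 88.6 TPM) lay below it and overlapped each other. BCL2L1 followed at 2.07 to 32.5 TPM. MCL1, the short-lived member that many lymphoma cells rely on, was at 0 to 3.10 TPM, with 0 in 4 of the 11. BCL2A1, an NF-κB target in B cells, was above 0 only in resistant decitabine b among the 11 (1.32 TPM). BCL2L10, a member with narrow tissue expression, was above 0 only in resistant decitabine a (1.28 TPM). ABALON and BCL2L2 were thus higher in each of the 11 libraries than in replicate 3, and BCL2, BCL2L1, MCL1 and BCL2A1 were lower in each. The shares of all features that did so were not counted. Replicate 3 had 13628 features at or above 1 TPM, and the 11 libraries had 7078 to 9038.

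**Figure D2:**
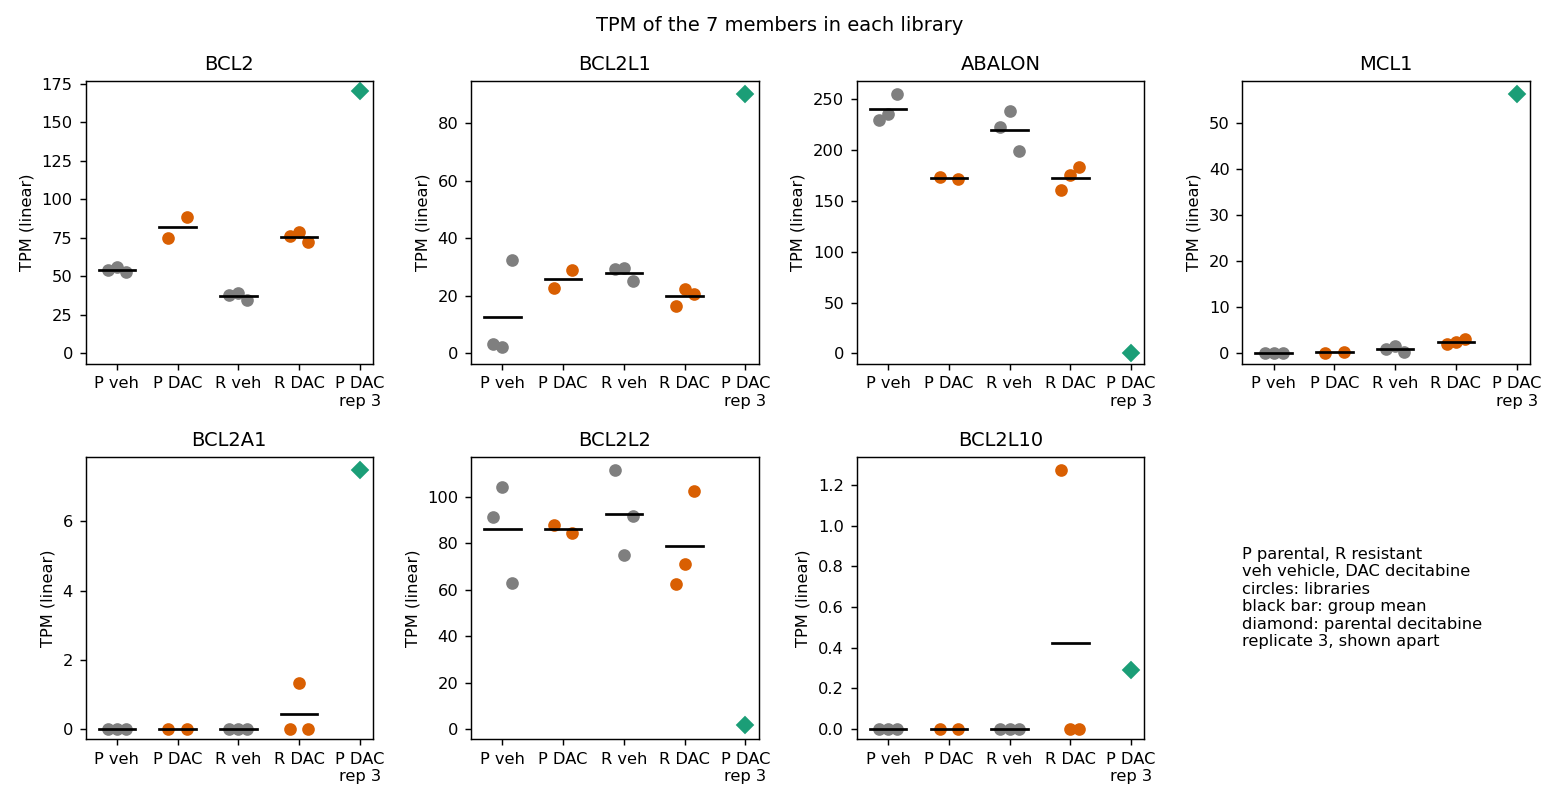
TPM of each of the 7 genes (linear axes that differ between panels) by group, with 1 circle per library, black bars at group means and a diamond for parental decitabine replicate 3. Among the 11 libraries BCL2 lies higher and ABALON lower with decitabine in both lines. Replicate 3 is not part of that comparison and lies apart, at 169.9 TPM of BCL2, 0.26 TPM of ABALON and 1.60 TPM of BCL2L2.

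Decitabine against vehicle asks what the drug changes in each line and over both. In listed TPM, BCL2, the target of venetoclax, rose with decitabine over both lines, and ABALON fell. Whether either change is on the gene's own strand was not tested. BCL2 also rose in resistant cells taken alone. BCL2L2 and BCL2L1 did not pass the test in any of these fits, and MCL1 was tested in resistant cells only. Features averaging 1 TPM or more in the fitted libraries were tested, and a call is a limma adjusted p under 0.05 over all of them. By that rule 10.4% of features were called over both lines, 3.59% in resistant and 1.86% in parental cells.

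BCL2 (chromosome 18, 63123346 to 63320128, minus strand) had 53.8, 55.9 and 52.8 TPM in parental vehicle libraries 1 to 3, while parental decitabine replicates 1 and 2 held 74.96 and 88.6 TPM. Resistant vehicle libraries a to c held 37.6, 39.4 and 34.5 TPM, and resistant decitabine libraries a to c 75.8, 78.6 and 72.1 TPM. Decitabine and vehicle libraries did not overlap in either line, and the vehicle libraries of resistant cells were the lowest of all. Upward separation was found for 27.9% of features in parental and 19.8% in resistant cells, and separation either way for 39.4% and 28.4%. Over both lines, with line as a term, limma gave a log2 fold change on log2(TPM + 1) of 0.82 (SE 0.11, limma adjusted p = 0.00219, higher in 5 of 5 decitabine libraries than in all vehicle libraries of their line). In that fit 674 of 8505 features (7.92%) were called as rises, and 9.45% separated the groups upward in both lines. In resistant cells alone it was 1.01 (SE 0.13, limma adjusted p = 0.0247), where 2.83% of features were called as rises. In parental cells alone it was 0.58 (SE 0.13, limma adjusted p = 0.12), where 1.38% were called as rises. These fits share libraries and are not independent of each other. The call over both lines held without any 1 of the 11 libraries (limma adjusted p from 0.00243 to 0.00851), while that in resistant cells alone was lost without any 1 of its 6 (0.0529 to 0.0816) and with no filter on low values (0.0633). With parental replicate 3 included the difference over both lines was 0.97 and the call was lost (limma adjusted p = 0.401). Whether the rise is that of BCL2 or of reads from the opposite strand was not tested.

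Parental vehicle libraries 1 to 3 held 229, 236 and 255 TPM of ABALON, while decitabine replicates 1 and 2 held 174 and 172 TPM. Resistant vehicle libraries a to c held 222, 239 and 199.5 TPM, and resistant decitabine libraries a to c 160.3, 175 and 183 TPM. The decitabine libraries lay below the vehicle libraries in both lines, with no overlap, a pattern shown by 2.99% of features. Over both lines this gave a log2 fold change of -0.40 (SE 0.08, limma adjusted p = 0.0137, lower in 5 of 5 decitabine libraries), and 2.43% of features were called as falls. In parental cells alone it was -0.47 (SE 0.09, limma adjusted p = 0.097, with 0.48% of features called as falls), and in resistant cells alone -0.35 (SE 0.12, limma adjusted p = 0.196, with 0.758% called as falls). Under median-ratio scaling ABALON was called in parental cells too (-0.65, limma adjusted p = 0.0457). The call over both lines held without any 1 of the 11 libraries (limma adjusted p from 0.0133 to 0.0384) and was lost with parental replicate 3 included (0.581), where ABALON was at 0.26 TPM. In bulk RNA, fewer cells that carry a transcript and less of it per cell cannot be told apart. Whether the fall is that of ABALON or of reads from the opposite strand was not tested.

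BCL2L1 turned on 1 library. Parental vehicle libraries 1 and 2 held 3.09 and 2.07 TPM and library 3 held 32.5 TPM, while decitabine replicates 1 and 2 held 22.6 and 29.1 TPM. Resistant vehicle libraries a to c held 29.3, 29.6 and 25 TPM, and resistant decitabine libraries a to c 16.4, 22.5 and 20.5 TPM. The parental groups overlapped through vehicle library 3, and the resistant decitabine libraries lay below the resistant vehicle libraries, as did 8.58% of features there. The fitted difference on the log2 scale was 1.83 in parental cells (SE 1.15, limma adjusted p = 0.446), -0.49 in resistant cells (SE 0.19, limma adjusted p = 0.243) and 0.54 over both lines (SE 0.64, limma adjusted p = 0.633). Without parental vehicle library 3 the parental value was 2.91 (limma adjusted p = 0.0856). ABALON in that library was at 255 TPM, so the library with the most BCL2L1 among the 11 also had the most ABALON.

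**Figure D3:**
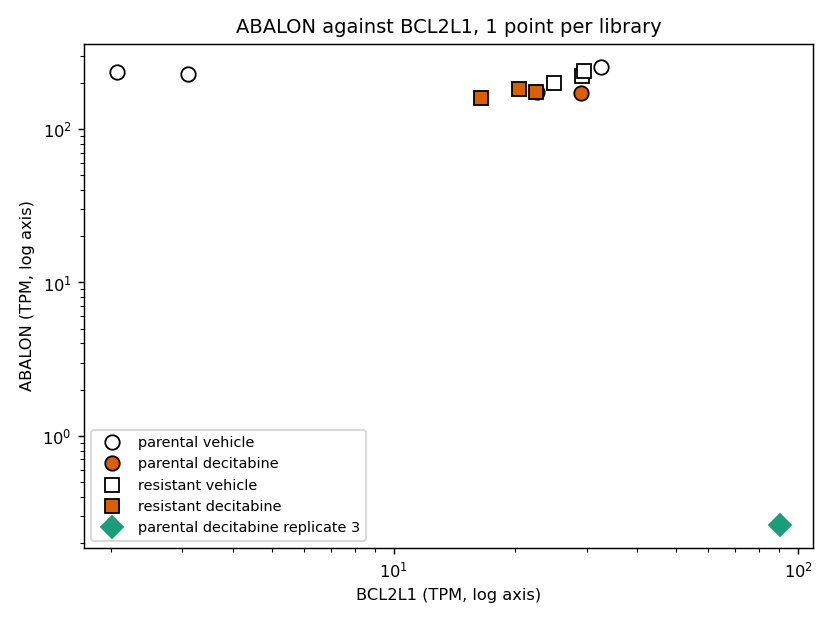
ABALON against BCL2L1 in TPM on log axes, with 1 point per library. The 11 libraries lie at 160.3 to 255 TPM of ABALON and 2.07 to 32.5 TPM of BCL2L1, and parental decitabine replicate 3 lies apart at 0.26 and 90.3 TPM.

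BCL2L2 encodes the survival protein BCL-W. Parental vehicle libraries 1 to 3 held 91.2, 104 and 62.95 TPM, while decitabine replicates 1 and 2 held 87.7 and 84.3 TPM. Resistant vehicle libraries a to c held 111.6, 74.6 and 91.7 TPM, and resistant decitabine libraries a to c 62.2, 70.9 and 102.5 TPM. The groups overlapped in both lines. Over both lines limma gave -0.13 on the log2 scale (SE 0.18, adjusted p = 0.708). BCL2L2 (chromosome 14, 23298790 to 23311759, plus strand) shares 206 exon bases, 4.9% of its own, with PPP1R3E on the opposite strand. PPP1R3E, which encodes a regulatory subunit of protein phosphatase 1, was at 6.54 to 11.7 TPM in the 11 libraries and at 27.8 TPM in replicate 3. HOMEZ, a homeobox gene whose span but no exon base overlaps that of BCL2L2, was at 0 to 0.58 TPM and at 12.5 TPM in replicate 3. On the strand of BCL2L2, the readthrough gene BCL2L2-PABPN1 shares 813 exon bases with it (19.4% of those of BCL2L2), and was at 0 in the 11 libraries and at 1.38 TPM in replicate 3. Neighbours on both strands were thus higher in replicate 3, while BCL2L2 was lower there.

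MCL1 (chromosome 1, 150574551 to 150579738, minus strand) was listed at 0 in the 3 parental vehicle libraries, while decitabine replicates 1 and 2 held 0 and 0.40 TPM. In the parental data another gene's identifier stands beside this name, and whether those values are of MCL1 was not tested. Resistant vehicle libraries a to c held 0.97, 1.70 and 0.28 TPM, and resistant decitabine libraries a to c 1.99, 2.54 and 3.10 TPM. The resistant groups did not overlap, as was so upward for 19.8% of features. MCL1 passed the limit on low values there through the decitabine libraries (mean 2.55 TPM, against 0.98 TPM under vehicle). The fitted difference there was 0.89 (SE 0.40, limma adjusted p = 0.282). It was 0.17 under quantile scaling and 1.54 with a pseudocount of 0.1, so its size at such low values depends on both. GENCODE 29 lists nothing antisense to the exons of MCL1, nor to those of BCL2A1 (chromosome 15, 79960889 to 79971446) and BCL2L10 (chromosome 15, 52109263 to 52112775), all on the minus strand. BCL2A1 and BCL2L10 were below the limit on low values in all 6 comparisons and were not tested.

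The share of each coding member in the summed TPM of the 6 coding genes was described without a test. BCL2 took 34.5% to 36.3% in parental vehicle libraries and 40.5% and 43.8% in parental decitabine replicates 1 and 2. Its share of the resistant libraries was 21% to 27.1% with vehicle and 36.4% to 48.1% with decitabine. BCL2L2 took 39.4% to 64.2% over the 11 libraries, and MCL1 at most 1.57%. In replicate 3 BCL2 took 52.2%, BCL2L1 27.7%, MCL1 17.3% and BCL2L2 0.49%. The sum itself was 145.3 to 202 TPM in the 11 libraries and 326 TPM in replicate 3.

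**Figure D4:**
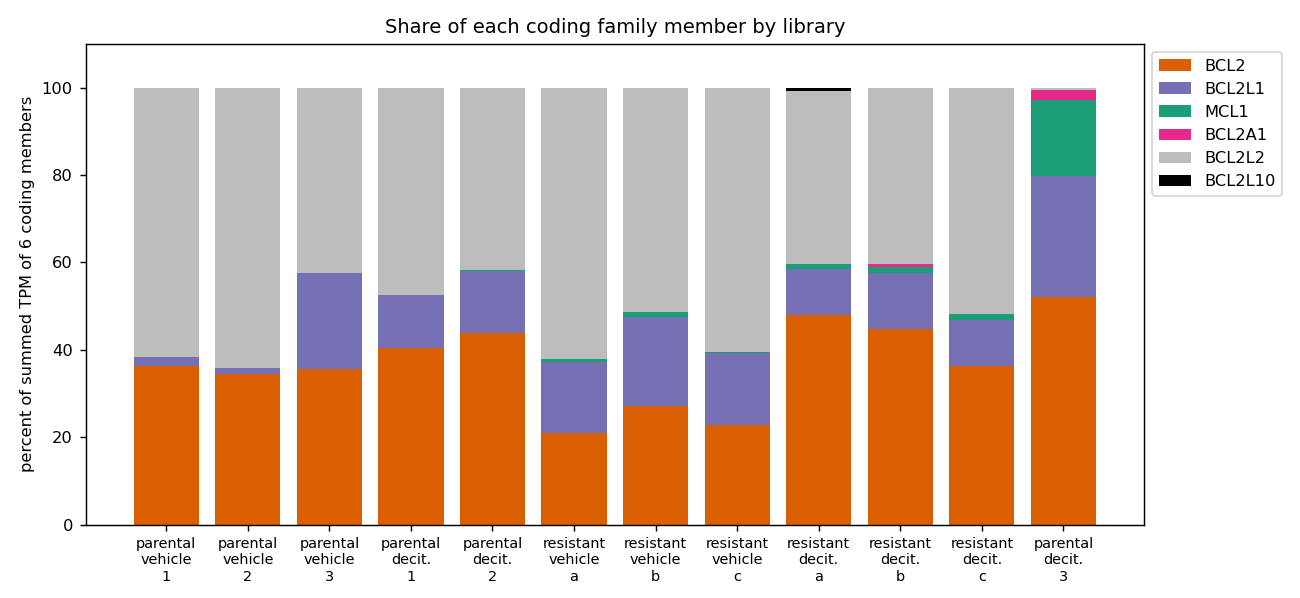
Share of each coding member in the summed TPM of the 6 coding family genes, with 1 stacked bar per library and parental decitabine replicate 3 at the right. BCL2 takes 21% to 36.3% of the vehicle bars and 36.4% to 48.1% of the 5 decitabine bars from the 11 libraries, and MCL1 is visible mainly in replicate 3 (17.3%).

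The balance between members was tested as 3 log2 ratios of (TPM + 1), with decitabine labels permuted within each line over all 200 regroupings of the 11 libraries. The ratio of BCL2 to BCL2L1 moved in opposite directions in the 2 lines, by -1.25 in parental and 1.49 in resistant cells, and was 0.12 on average (2-sided exact permutation p = 0.885, adjusted over the 3 ratios 0.885). Parental vehicle libraries 1 to 3 had ratios of 3.74, 4.21 and 0.68, and decitabine replicates 1 and 2 ratios of 1.69 and 1.58, so these groups overlapped. Resistant vehicle libraries had 0.35, 0.40 and 0.45 and resistant decitabine libraries 2.14, 1.76 and 1.77, without overlap. The ratio of ABALON to BCL2L1 differed by -1.08 (exact permutation p = 0.27, adjusted 0.405), from -2.30 in parental and 0.14 in resistant cells. Parental vehicle libraries 1 to 3 had ratios of 5.81, 6.27 and 2.93 and decitabine replicates 1 and 2 ratios of 2.89 and 2.52, so vehicle library 3 lay near the decitabine replicates. In resistant libraries it was 2.88 to 2.97 with vehicle and 2.91 to 3.21 with decitabine, and these ranges overlapped. The ratio of BCL2 to MCL1 differed by 0.23 (exact permutation p = 0.195, adjusted 0.405), and it rests on the pseudocount wherever MCL1 was at 0.

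Whether the response to decitabine differed between the lines was tested by the interaction in a model of the 4 groups. None of the 4 members tested was called (0 of 4 by limma, 1 at an unadjusted p under 0.05, as were 857 of all 8505 features), where 31 of 8505 features (0.364%) were called. The fitted response of BCL2 was 0.42 higher in resistant cells on the log2 scale (SE 0.18, limma adjusted p = 0.463). That of BCL2L1 differed by -2.31 (SE 1.13, limma adjusted p = 0.535). Without parental vehicle library 3, singled out by its BCL2L1 value, it was -3.39 (limma adjusted p = 0.00737), where 12 of 8532 features were called. Without parental vehicle library 1 or 2 or any resistant library it was -2.41 to -1.67 (limma adjusted p from 0.558 to 0.675). Without parental decitabine replicate 1 or 2 it was -2.49 and -2.14. That of ABALON differed by 0.12 (SE 0.15, limma adjusted p = 0.816) and that of BCL2L2 by -0.28 (SE 0.37, limma adjusted p = 0.832).

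Resistant against parental cells asks what differs once cells tolerate venetoclax, under vehicle or with decitabine. The 2 lines come from 2 tables, each library being scaled to the same sum, and line and table cannot be told apart. Under vehicle BCL2 was at 37.1 ± 2.48 TPM in resistant and 54.1 ± 1.58 TPM in parental cells (SD, n = 3 each), without overlap, as was so downward for 10.2% of features and either way for 28.1%. The fitted difference was -0.53 (SE 0.12, limma adjusted p = 0.0908), where 1.07% of features were called as lower and 1.73% as higher. It was called when all 4 groups shared 1 estimate of the spread (limma adjusted p = 0.0363). Under decitabine BCL2 was at 75.5 ± 3.26 TPM in resistant cells (SD, n = 3) and at 74.96 and 88.6 TPM in parental cells, and the groups overlapped (log2 fold change -0.11, SE 0.15, limma adjusted p = 0.78). These comparisons share their vehicle or decitabine libraries with those of the drug.

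BCL2L1 under vehicle was higher in resistant than in parental libraries 1 and 2 but not than in library 3 (log2 fold change 1.94, SE 0.92, limma adjusted p = 0.311). Parental vehicle library 3 was singled out by its BCL2L1 value. Without that library BCL2L1 was called as higher in resistant cells (3.03, limma adjusted p = 0.0242), where 67 of 7719 features were called. Without any other library the difference was 1.30 to 2.02 (limma adjusted p from 0.418 to 0.533). With decitabine the resistant libraries held less BCL2L1 than both parental replicates, as was so downward for 12.4% of features, but the difference was not called (-0.37, SE 0.24, limma adjusted p = 0.557). ABALON differed by -0.13 under vehicle (SE 0.11, limma adjusted p = 0.576) and by -0.0025 under decitabine (SE 0.12, limma adjusted p = 0.995). BCL2L2 differed by 0.12 and -0.16 (limma adjusted p = 0.835 and 0.812). MCL1 under decitabine was at 1.99 to 3.10 TPM in resistant cells and at 0 and 0.40 TPM in parental cells, without overlap, as was so upward for 19.5% of features and either way for 32% (log2 fold change 1.57, SE 0.42, limma adjusted p = 0.249). It was matched between the lines by name, with another gene's identifier beside it in the parental data. MCL1 passed the limit on low values under decitabine only through the resistant libraries. With 0 of 4 members called under vehicle (1 at an unadjusted p under 0.05, as were 1496 of 7761 features) and 0 of 5 under decitabine (1, as were 1094 of 9029 features), limma called 2.8% and 0.831% of all features, and 0.509% as higher under decitabine.

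**Figure D5:**
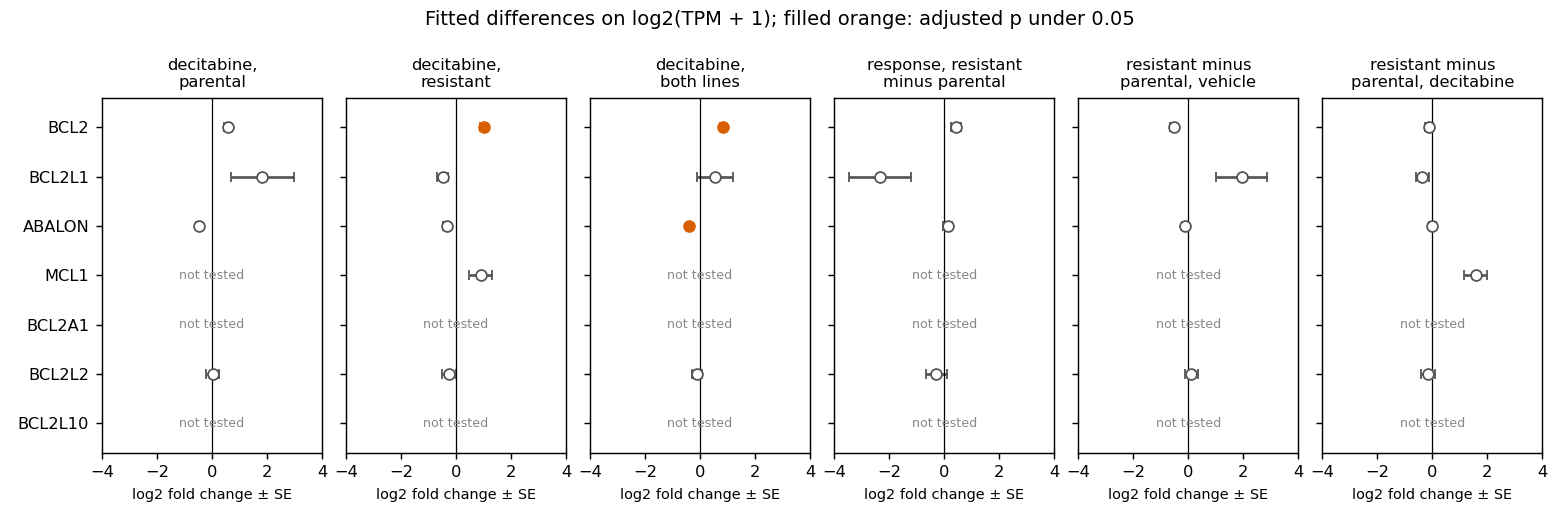
Fitted log2 fold changes on log2(TPM + 1) with their SE for the members tested in each of the 6 comparisons, filled where the limma adjusted p was under 0.05. BCL2 in resistant cells (1.01) and over both lines (0.82) and ABALON over both lines (-0.40) are filled.

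Counted over the 6 comparisons, 4 or 5 of the 7 members passed the limit on low values. Over both lines 1 of 4 rose and 1 of 4 fell, where 7.92% and 2.43% of all features did. The median log2 fold change of the members was 0.21, against 0.21 over all features. In resistant cells 1 of 5 rose and none fell, where 2.83% and 0.758% of all features did (median -0.25 against 0.21). In parental cells none of 4 was called by limma, where 1.86% of all features were. The median there was 0.31 against 0.21, with 2 members at an unadjusted p under 0.05, as were 1461 of all 8122 features. In the 4 comparisons that follow, other scalings moved the split of all calls toward lower values. Over both lines it was 674 rises and 207 falls as deposited, 468 and 368 under median-ratio scaling and 369 and 369 under quantile scaling. In resistant cells it was 243 and 65, 220 and 121, and 131 and 65, and in parental cells 112 and 39, 104 and 85, and 75 and 47. Under vehicle 134 features were higher and 83 lower in resistant cells as deposited, 86 and 105 under median-ratio scaling and 86 and 98 under quantile scaling. BCL2 and ABALON kept their directions and calls over both lines under each scaling, with 0.68 and 0.73 for BCL2 and -0.54 and -0.44 for ABALON under median-ratio and quantile scaling.

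CpG, the dinucleotide that DNA methyltransferases act on, was counted in promoter windows of the members. RefSeq promoter windows (GRCh38.p14) were found for BCL2, BCL2L1 and BCL2A1, and the 250 bases before each RefSeq start were read. The window of BCL2 (chr18:63319770-63320019, minus strand) holds 24 CpG, and 23.7% of 35116 such windows hold as many or more. The 2 windows of BCL2L1 hold 17 (chr20:31723964-31724213) and 12 (chr20:31722869-31723118), and all 250 bases of the latter lie within the exon of ABALON. The window of BCL2A1 (chr15:79971197-79971446, minus strand) holds 2, and 22.9% of windows hold as few. The median window holds 11. The windows of BCL2 and BCL2A1 are shown, 5′ to 3′, because they hold the most and the fewest CpG of the members found, with each CpG in capitals. Methylation was not measured, and whether CpG content bears on any level was not tested.
BCL2: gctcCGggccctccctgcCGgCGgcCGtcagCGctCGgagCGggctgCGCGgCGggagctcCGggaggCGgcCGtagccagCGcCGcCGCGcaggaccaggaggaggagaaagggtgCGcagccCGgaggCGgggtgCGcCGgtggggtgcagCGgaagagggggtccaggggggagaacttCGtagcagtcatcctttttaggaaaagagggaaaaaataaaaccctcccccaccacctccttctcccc
BCL2A1: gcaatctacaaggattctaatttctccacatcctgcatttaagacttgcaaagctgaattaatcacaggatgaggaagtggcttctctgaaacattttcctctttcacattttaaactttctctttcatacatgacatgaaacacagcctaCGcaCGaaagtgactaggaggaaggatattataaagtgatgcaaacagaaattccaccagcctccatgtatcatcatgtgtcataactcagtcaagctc

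Features whose level followed a member over the 11 libraries were listed by Pearson's r on log2(TPM + 1) among 3370 named features of at least 5 TPM, as a description of libraries that share groups and scaling. For BCL2 these were the histone gene H2BC15 (r = 0.975), PGAM2, a muscle-type phosphoglycerate mutase gene (0.957), and MTSS1, which encodes a membrane-binding actin regulator (0.938). PGAM2 had group means of 29.8 and 86.9 TPM in parental and 14.9 and 91.5 TPM in resistant cells, under vehicle and decitabine, and was at 0.0029 TPM in replicate 3. For ABALON they were the ribosomal protein gene RPS28 (r = 0.948), TOPORS (0.946) and the homeobox gene NKX6-3 (0.938). For BCL2L1 they were NUB1 (r = 0.927), WAC-AS1 (0.901) and the cold-inducible gene RBM3 (0.875), and for BCL2L2 the focal-adhesion gene PXN (r = 0.881), LRRC37A (0.87) and RBIS (0.837). Between members r was -0.70 for BCL2 with ABALON, -0.26 for ABALON with BCL2L1 and -0.037 for BCL2 with BCL2L1.

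Among the partners that the anti-apoptotic proteins bind, 2 genes were called. Of the 3 pro-apoptotic effector genes, which open the outer mitochondrial membrane, 2 were tested over both lines and none was called by limma in any comparison. BAX had a mean of 3.21 TPM over the 11 libraries and 125 TPM in replicate 3, and its fitted difference over both lines was 1.22 (SE 0.45, limma adjusted p = 0.118). BAK1 was above 0 in parental vehicle library 1 (15.6 TPM) and resistant vehicle library b (21.04 TPM), at 0 in the other 9 and at 36.2 TPM in replicate 3. Among 8 BH3-only genes, whose products free the effectors from the survival proteins, 6 were tested over both lines and 1 rose, where 7.92% of all features were called as rises, and the 6 had a median log2 fold change of 0.50 against 0.21 over all features. That gene was HRK, at 0 to 1.68 TPM in the 6 vehicle libraries and 2.35 to 5.01 TPM in the 5 decitabine libraries (log2 fold change 1.31, SE 0.29, limma adjusted p = 0.0202). It passed the limit on low values only through the decitabine libraries, where it was higher. HRK lost its call under quantile scaling (limma adjusted p = 0.151), with no filter (0.0578), with a pseudocount of 0.1 (0.0609), without parental decitabine replicate 1 (0.0527) and with replicate 3 included (0.348). BAD had the highest mean of these genes over the 11 libraries, at 115 TPM, with 0 in resistant vehicle library b and resistant decitabine library b (0.32 over both lines, SE 1.59, limma adjusted p = 0.921). BCL2L11, which encodes BIM, had a log2 fold change of 0.98 over both lines (SE 0.32, limma adjusted p = 0.0858). BMF was listed at 0 in all 6 resistant libraries, so between lines it passed the limit on low values only through parental libraries. Parental vehicle libraries 1 to 3 held 18, 0 and 22.6 TPM of BMF and decitabine replicates 1 and 2 held 19.3 and 23.6 TPM, and limma called it lower in resistant cells under decitabine (adjusted p = 0.0197), as it did 0.321% of all features. BMF lost that call without any 1 of the 5 libraries (limma adjusted p from 0.0663 to 0.0907), with no filter (0.0516), with a mean of at least 5 TPM (0.0745), with 4 groups in 1 model (0.0961) and with replicate 3 included (0.592).

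Genes outside these groups were called in 1 case. None of the tested genes among 10 other BCL2-like genes (5 tested over both lines), 10 genes of the apoptosome and caspases (4), 6 IAP genes (1) and 9 names for genes of MCL1 turnover, 8 of them found (2), was called by limma in any of the 6 comparisons. Of all features 10.4% were called over both lines and 0.364% to 3.59% in the other comparisons. In these lists ENDOG, which encodes a mitochondrial nuclease, had the highest mean over the 11 libraries at 278 TPM (19 TPM in replicate 3), with a log2 fold change of -0.29 over both lines (SE 0.15, limma adjusted p = 0.254). Of 16 regulators of BCL2 family genes 8 were tested over both lines and 1 fell, where 2.43% of all features were called as falls, and the 8 had a median of -0.076 against 0.21 over all features. That gene was MYC, at 286 to 411 TPM in the 6 vehicle libraries and 199 to 303 TPM in the 5 decitabine libraries (log2 fold change -0.56, SE 0.13, limma adjusted p = 0.023). MYC was at 296 TPM in replicate 3. MYC lost its call with no filter (limma adjusted p = 0.0616), with replicate 3 included (0.581) and without parental decitabine replicate 1 or 2 (0.0611 and 0.0578), resistant decitabine a or c (0.0513 and 0.0563) or resistant vehicle b (0.0527).

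Inside BCL2, both other annotated features lie in introns and share no exon base with it. The sense-intronic one (chromosome 18, 63151114 to 63151320, minus strand) had 4.90, 0 and 0 TPM in parental vehicle libraries 1 to 3, and decitabine replicates 1 and 2 held 10.9 and 15.5 TPM. Resistant vehicle libraries a to c held 7.05, 2.33 and 1.06 TPM, and resistant decitabine libraries a to c 5.18, 6.83 and 12.6 TPM. The groups were apart in parental cells, as was so upward for 27.9% of features, and overlapped in resistant cells. Over both lines limma gave 1.97 on the log2 scale (SE 0.60, adjusted p = 0.067). The antisense one (chromosome 18, 63207622 to 63208168, plus strand) was at 0 to 2.64 TPM in the 11 libraries and was not tested over both lines. BCL2 thus has no annotated exon opposite its own exons, unlike ABALON.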

How the data were processed

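Per the labels' protocols, stranded DNBSEQ libraries were made from polyadenylated RNA. The submitters' processing notes name hg38 and the tools HISAT2, StringTie and DESeq2. Their versions, the gene annotation and whether counting used strand are not given in those notes. The deposited tables, 1 per line, state no unit in their headers, and the values were read as TPM because those of each library sum to 1000000. Names listed once were used (59490), and 1166 features with repeated names left out. Identifiers were not used, since the parental table sets another gene's identifier beside MCL1. Parental columns were matched to samples by title, and resistant columns to groups by table name and treatment.

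limma 3.58.1 (trend, R 4.3.3) was fitted to log2(TPM + 1), on features averaging 1 TPM or more, with Benjamini-Hochberg adjustment over all of them and a threshold of 0.05. Parental decitabine replicate 3 was left out of the comparisons. Alternatives were quantile and median-ratio scaling, no filter, a minimum mean of 5 TPM, 0.1 as pseudocount, 4 groups in 1 model, replicate 3 included, the replicate number as a block, and leaving out each library. Named features were the members, features over their spans, called genes of the pathway lists with the most abundant others, and the 3 closest features per member. The members, lists and the choice to set replicate 3 apart were made with earlier results of these data known. Positions are from GENCODE 29 (GRCh38).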

Additional observations from a re-analysis of the deposited data

Results flagged for a closer look

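Parental decitabine replicate 3 was not used in the comparisons, and 5 of the 7 members were listed there above all 3 parental vehicle libraries. The share of all features that lay above those libraries was not counted. Replicate 3 had 13628 features at or above 1 TPM, and the parental vehicle libraries had 7277 to 7327. BCL2 was at 169.9 TPM in replicate 3 against at most 55.9 TPM in those libraries, and BCL2L1 at 90.3 against at most 32.5 TPM. MCL1 was at 56.3 TPM, BCL2A1 at 7.50 TPM and BCL2L10 at 0.29 TPM, each against 0 in all 3. ABALON and BCL2L2 were lower there than in those libraries, at 0.26 and 1.60 TPM.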

How the results depend on the processing

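Counts of called features moved with the filter, the samples and the spread estimate. In parental cells 151 features were called, 35 with no filter, 0 with replicate 3 included (262 at an unadjusted p under 0.05), 0 with the replicate block (978 at an unadjusted p under 0.05) and 14 to 264 without 1 library. In resistant cells 308 were called, 196 under quantile scaling, 73 with no filter, 194 with a mean of at least 5 TPM, 661 with 4 groups in 1 model and 90 to 197 without 1 library. Between lines under vehicle 217 were called, 68 with no filter, 423 with 4 groups in 1 model and 58 to 191 without 1 library. Under decitabine 75 were called, 21 with no filter, 155 with 4 groups in 1 model, 0 with replicate 3 included (285 at an unadjusted p under 0.05) and 0 to 17 without 1 library. Over both lines 881 were called, 475 with no filter, 25 with replicate 3 included and 573 to 730 without 1 library. For the difference of responses 31 were called, 7 with no filter, 1 with replicate 3 included and 12 to 47 without 1 library. Causes of these shifts were not tested.

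Directions turned for values that were not called. The replicate numbers of the parental titles share no source that the labels name (correlations of deviations -0.01 and -0.01), and with the replicate block BCL2 was at 0.56 and ABALON at -0.43 in parental cells. BCL2L2 in parental cells was 0.030 and became -0.10 under quantile scaling, -0.15 under median-ratio scaling, -1.66 with replicate 3 and -0.18 with the replicate block, with -0.18 to 0.18 without 1 library. Under vehicle BCL2L2 between lines was 0.12 and became -0.058 under quantile and -0.040 under median-ratio scaling, with -0.090 to 0.27 without 1 library. Under decitabine, without 1 library, BCL2 ranged from -0.23 to 0.0099 and ABALON from -0.045 to 0.050 between lines. With replicate 3 included ABALON was 2.37, MCL1 -0.29 and BCL2L2 1.53 between lines under decitabine, and the difference of responses for BCL2L2 was 1.41. The log2 ratio of BCL2 to MCL1 became -0.54 with a pseudocount of 0.1 and -0.53 with replicate 3 included. The log2 ratio of BCL2 to BCL2L1 ranged from -0.43 to 0.46 without 1 library. Over both lines the median of all features was 0.21 on the log2 scale, and quantile and median-ratio scaling moved it to -0.035 and 0.10. Depth is unknown, so what it limits cannot be stated.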
